A study of Mus musculus with 2 samples.

Results

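Genes that serum response factor (SRF) and the coactivator YAP are known to switch on were compared between mouse bone marrow monocytes and macrophages that had been differentiated from such monocytes with lysophosphatidic acid (LPA). The set is 10 named genes of the 47643 in the table, and all 10 were found by symbol: Srf itself, the YAP targets Ctgf, Cyr61 and Ankrd1, and the actin cytoskeleton genes Acta2, Tagln, Tagln2, Tpm1, Cnn2 and Myl9. Each group is 1 RNA sequencing library from wild-type C57BL/6 mice aged 6 weeks, named by its title as monocytes or as LPA-derived macrophages. The extraction protocol, shared by both labels, mentions differentiation with LPA, but the monocyte library was taken from its title as undifferentiated. No culture without LPA is among the samples, so LPA, culture and differentiation cannot be told apart, and with 1 library a group no difference has a replicate check. The labels do not say whether animals were pooled.

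SRF is a transcription factor that binds CArG boxes. It works with the myocardin-related cofactors, which free actin monomers hold in the cytoplasm, or with ternary complex factors of the ELK family, which MAP kinases switch on. YAP and its relative TAZ enter the nucleus when the Hippo kinases are inactive and drive genes through TEAD factors. LPA is a well-known upstream signal of both: its receptors act through heterotrimeric G proteins that lead to actin polymerization, and polymerized actin releases the cofactors. In fibroblasts and smooth muscle this programme produces contractile fibres and matricellular proteins, whereas leukocytes use other isoforms of the same protein families.

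The promoters of 5 members are shown because they hold SRF or TEAD letters and belong to genes that were higher, lower or nearly level in the macrophages. Each sequence is from RefSeq (GRCm38.p6), runs from 250 bases before the start of transcription to 50 after it, 5′ to 3′ on the gene's strand, and has in capitals every CArG box (CC and GG around 6 central letters that are each A or T), every such box with 1 G or C among the 6 central letters, and every GGAATG or its reverse complement CATTCC, the core that TEAD factors recognise.
Srf chr17:46556113-46556412 (- strand): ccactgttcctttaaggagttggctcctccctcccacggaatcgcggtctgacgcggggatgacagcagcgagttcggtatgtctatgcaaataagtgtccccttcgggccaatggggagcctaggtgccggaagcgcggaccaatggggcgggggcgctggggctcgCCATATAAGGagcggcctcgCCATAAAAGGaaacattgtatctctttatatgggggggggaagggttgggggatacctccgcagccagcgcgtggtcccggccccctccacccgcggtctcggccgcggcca
Cnn2 chr10:79988350-79988649 (+ strand): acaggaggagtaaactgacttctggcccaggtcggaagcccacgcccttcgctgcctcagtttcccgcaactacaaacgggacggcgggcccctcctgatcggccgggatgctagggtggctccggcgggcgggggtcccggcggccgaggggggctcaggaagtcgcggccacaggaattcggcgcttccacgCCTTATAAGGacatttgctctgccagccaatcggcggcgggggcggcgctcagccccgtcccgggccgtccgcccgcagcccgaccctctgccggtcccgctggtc
Myl9 chr2:156775214-156775513 (+ strand): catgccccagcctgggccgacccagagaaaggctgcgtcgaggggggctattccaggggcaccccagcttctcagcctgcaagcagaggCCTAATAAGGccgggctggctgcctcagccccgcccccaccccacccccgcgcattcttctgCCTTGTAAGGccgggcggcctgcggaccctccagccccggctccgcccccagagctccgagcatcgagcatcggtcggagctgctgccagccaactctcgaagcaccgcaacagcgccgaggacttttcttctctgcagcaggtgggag
Acta2 chr19:34255324-34255623 (- strand): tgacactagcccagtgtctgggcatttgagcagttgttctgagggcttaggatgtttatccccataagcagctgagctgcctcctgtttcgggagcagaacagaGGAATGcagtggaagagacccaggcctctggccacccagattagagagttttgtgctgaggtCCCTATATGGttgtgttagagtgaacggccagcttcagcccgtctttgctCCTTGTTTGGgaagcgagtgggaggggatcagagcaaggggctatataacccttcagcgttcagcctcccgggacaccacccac
Cyr61 chr3:145649936-145650235 (- strand): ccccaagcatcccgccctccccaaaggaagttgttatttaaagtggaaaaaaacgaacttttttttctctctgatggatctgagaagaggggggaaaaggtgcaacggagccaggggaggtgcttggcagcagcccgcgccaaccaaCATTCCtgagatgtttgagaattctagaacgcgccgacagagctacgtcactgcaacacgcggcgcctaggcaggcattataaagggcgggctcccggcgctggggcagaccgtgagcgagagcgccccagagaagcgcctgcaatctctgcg
The promoter table matched 8 of the 10 members. Both strands were searched, and no match overlapped another. An intact CArG box was found in 3 of the 8: in Srf at 82 and 62 bases before the start, in Cnn2 at 56 and in Myl9 at 161. Srf and Cnn2 were lower in macrophages and Myl9 higher. Of all 32851 promoters of the same 300 bases in the table, 1.63% hold such a box. The form with 1 changed central letter was found in Acta2, at 84 and 34 bases before the start, and in Myl9, at 99, against 8.50% of all promoters. GGAATG or CATTCC was found in 5 of the 8, namely Cyr61 (103 bases before the start), Ankrd1 (210 and 123), Acta2 (146), Tagln2 (118 and 80) and Tpm1 (56), against 14.7% of all promoters. A match is a description of letters and not a shown binding site, and a window without one says nothing of the factor. The members were listed as known targets of these factors, so the shares of all promoters are given for scale and test nothing.

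Ankrd1 was barely read, and the other members fell into 3 kinds. Ctgf, Acta2, Tagln, Tpm1 and Myl9 were several-fold higher in macrophages. The calponin gene Cnn2 and Srf were lower in macrophages, and Tagln2 and Cyr61 lay within 2-fold. Levels are counts of unique exon reads scaled to counts per 1000000 reads (CPM), with totals of 12473180 such reads in monocytes and 16726342 in macrophages, and genes with 5 CPM or more in either library were kept. A gene was called higher or lower at a 2-fold ratio of CPM + 1. Of the 9 members that passed, 5 were called higher, where 13.8% of the 10407 genes that passed were, and 2 were called lower, where 19.9% of genes were. Ctgf, Tagln and Myl9 passed only by their macrophage level and so could not be called lower. The log2 ratio of the 9 ran from -1.41 to 3.63 with a median of 2.06, that of Myl9, beside -0.23 for all genes that passed; it was 1.05 with a pseudocount of 5 CPM and 1.27 with no floor. Among the 6 members at 5 CPM or more in monocytes, 2 were called higher and 2 lower, where 8.89% and 21.4% of the 9694 such genes were, and the median was -0.16, beside -0.31 for those genes. In a bulk library, more cells of a type and more RNA per cell cannot be told apart.

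**Figure D1:**
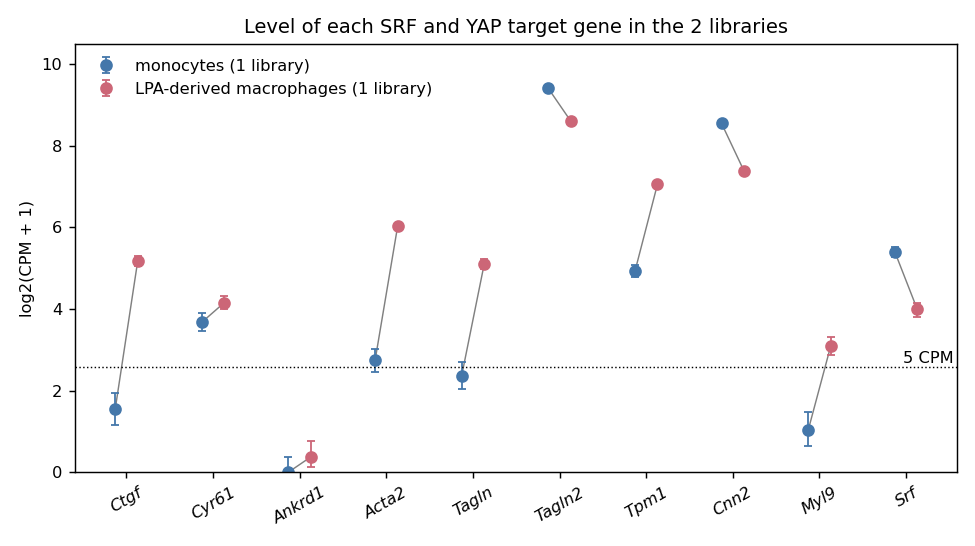
Level of each of the 10 genes as log2(CPM + 1) in the monocyte (blue) and macrophage (red) library, with exact 95% Poisson counting intervals and the 5 CPM floor dotted. Ctgf, Acta2, Tagln, Tpm1 and Myl9 lie higher in the macrophage library, Cnn2 and Srf lie lower there, and Ankrd1 is close to 0 in both.

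**Figure D2:**
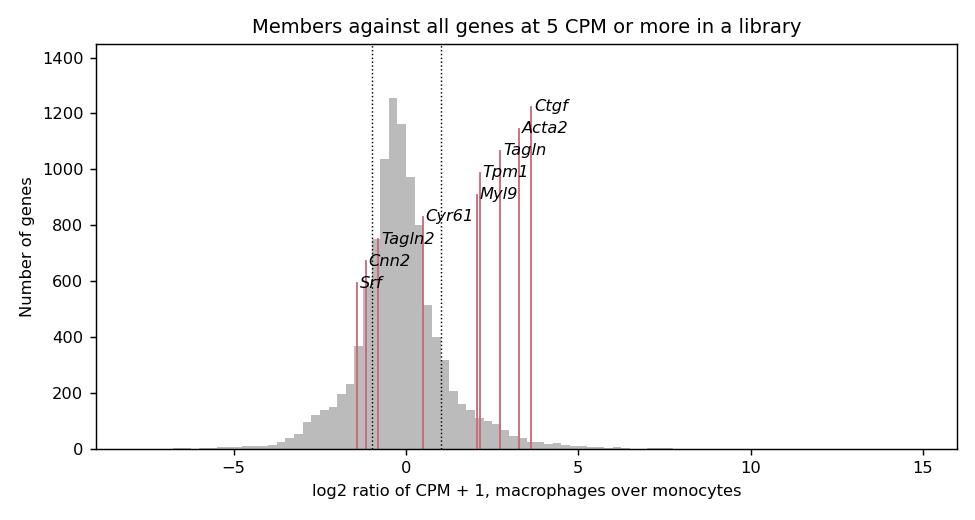
Histogram of the log2 ratio of CPM + 1 (macrophages over monocytes, x axis) over the 10407 genes at 5 CPM or more in a library, with red lines at the 9 members among them (line heights only separate the names) and dotted lines at 2-fold. The 5 higher members stand between 2.06 and 3.63 and the lowest, Srf, at -1.41.

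Srf, which encodes the factor itself, was lower in the macrophages. The gene (ENSMUSG00000015605, chr17:46546839-46556162, minus strand, GRCm38) had 515 exon reads in monocytes and 249 in macrophages, or 41.3 and 14.9 CPM. That is a 2.77-fold lower level (95% counting interval 2.38 to 3.24). It stayed at least 2-fold lower in all 14 alternative computations (other pseudocounts, floors, scalings, read classes and the authors' own values). Among these, a floor cannot change the ratio of a single gene, and total exon reads gave the same ratio as unique exon reads. Spliced reads, those that span 2 exons, gave 332 and 169, a 2.498-fold lower level (2.07 to 3.02). No intron read was listed for Srf in either library, where 14.1% and 9.90% of all gene reads were intronic. A non-coding gene on the opposite strand that is annotated over the whole of Srf, Gm26904, was listed at 0 exon reads in both. Whether this overlap changed which reads were counted for Srf was not tested.

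Of the 5 cofactors of SRF past the floor, 1 was called higher in macrophages and 1 lower, where 13.8% and 19.9% of all genes were. Mkl1, the gene of the myocardin-related cofactor MRTF-A, was at 97.2 and 125.5 CPM (here and below, monocytes first). Mkl2, the gene of its relative MRTF-B, had 173 and 1025 reads (13.9 and 61.3 CPM), 4.42-fold higher (3.76 to 5.22), and was the only cofactor called higher. Myocd, the cofactor of heart and smooth muscle, had 0 reads in both libraries, which allows up to 0.241 CPM in monocytes and 0.179 CPM in macrophages. Of the ternary complex factors, Elk3 stood at 49.0 and 60.2 CPM and Elk1 at 15.4 and 27.4 CPM. Elk4 was 2.36-fold lower in macrophages, a call lost after centring on all genes, under which Elk1 was called higher. The 5 cofactors past the floor had a median log2 ratio of 0.36.

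Of the 3 YAP targets in the set, 1 was much higher in macrophages, 1 was within 2-fold and 1 was barely read. Ctgf, which encodes a secreted matricellular protein of the CCN family (ENSMUSG00000019997, chr10:24595442-24598683, plus strand), had 24 exon reads in monocytes (1.92 CPM) and 590 in macrophages (35.3 CPM). The level was 18.3-fold higher (12.2 to 28.8), a ratio above that of 98.6% of genes past the floor, and the authors' deposited table gives 21.3-fold. Spliced reads rest on 1 read in monocytes against 163 in macrophages, a ratio of 128 (22.7 to 5094). Ctgf overlaps Gm15270 on the opposite strand over 1667 bases, and that gene was listed at 0 exon reads in both libraries.

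Cyr61, the related CCN gene that is also an immediate early gene (ENSMUSG00000028195, chr3:145646976-145649981, minus strand), had 147 and 282 exon reads, or 11.8 and 16.9 CPM. The level was 1.43-fold higher (1.17 to 1.76), within 2-fold in every alternative that gave a value. Its spliced reads, 39 and 89, gave 1.79-fold (1.22 to 2.69). Ankrd1, an ankyrin repeat protein of striated muscle that also acts in the nucleus (ENSMUSG00000024803, chr19:36111965-36119844, minus strand), had 0 exon reads in monocytes and 5 in macrophages. It was under the floor. Against 3 reads as the limit for a count of 0 the ratio was 1.24, with a counting interval that starts at 0.683, so the reads do not settle a direction. Per length, Cyr61 was the leading CCN gene in monocytes and Ctgf in macrophages: the authors' RPKM (reads scaled to exon length and library size) was 4.90 for Cyr61 and 0.565 for Ctgf in monocytes, and 7.36 and 10.9 in macrophages. Among their relatives, Wisp1 was 5.90-fold higher (22 and 174 reads), Wisp2 had 7 and 50 reads and Wisp3 2 and 0, and Nov had none in either library. Of the relatives of Ankrd1, Ankrd2 had 0 reads in both libraries and Ankrd23 had 8 and 15.

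The genes through which YAP acts were near the limit of detection in monocytes and low in macrophages. Yap1 had 3 reads in monocytes and 61 in macrophages (0.241 and 3.65 CPM), a ratio of 15.2 (4.95 to 75.6). Wwtr1, the TAZ gene, had 0 and 30 reads, 7.46-fold higher against 3 reads, with a counting interval that starts at 5.70. Tead1 had 2 and 80 reads, a ratio of 29.8 (7.99 to 250.5). Tead3 had 6 and 13 reads and Tead4 0 and 1, and Tead2 was not analysed here. All of these stayed under 5 CPM in both libraries on the main scale. Tead1, at 4.78 CPM in macrophages, passed the floor and was called higher with TMM factors. The Hippo kinase genes, named after their values were seen, were well read: Stk4 stood at 287.9 and 172.3 CPM, Stk3 at 21.6 and 27.1 CPM and Lats1 at 58.4 and 54.3 CPM.

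Of all genes that passed the floor, 13.8% were called higher and 19.9% lower. Of the 18 genes past it in the list of YAP, TAZ, TEAD and Hippo genes (28 listed), 1 was called higher and 3 lower. Their median log2 ratio was -0.25. The higher one was Frmd6, which encodes an upstream Hippo scaffold, at 11.1 and 35.9 CPM. The lower ones were Amotl2, Amot and Lats2, which restrain YAP and are in part its targets; after centring on all genes none of the 3 stayed 2-fold lower. With no floor, 6 of 27 genes of the YAP, TAZ, TEAD and Hippo list were called higher and 3 lower. All genes then gave 1806 higher and 2479 lower of 16992. With TMM factors, 3 of the 20 past the floor were called higher and 1 lower, where 1779 and 1559 of all 10409 genes were. Of 19 other YAP targets, 11 passed the floor, 4 were called higher and 2 lower. Their median was -0.63, a value that ran from -0.68 to 0.74 over the alternatives. Myof, a membrane repair protein of the ferlin family, was 30.9-fold higher (27.4 to 34.9) at 21.9 and 675.6 CPM. Ccdc80 was 6.80-fold, the receptor tyrosine kinase gene Axl 4.94-fold and Crim1 4.56-fold higher. The lower ones were again Amotl2 and Lats2, which stand in both lists. Ccdc80 and Crim1 passed the floor only by their macrophage level.

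The contractile genes that mark smooth muscle and myofibroblasts had few reads in monocytes and more in macrophages. Acta2, the smooth muscle alpha actin gene (ENSMUSG00000035783, chr19:34241090-34255336, minus strand), had 71 and 1072 exon reads, or 5.69 and 64.1 CPM, 11.3-fold higher (8.85 to 14.5). Spliced reads, 47 and 750, gave 12.5-fold (9.34 to 17.2), and intron reads, 5 and 24, gave 5.37-fold (2.01 to 18.0). Acta2 remained a minor actin: per length it made up 0.111% of the summed RPKM of the 6 actin genes in monocytes and 1.29% in macrophages. Actb, the main cytoplasmic actin gene, stood at 5925 and 6278 CPM, a ratio of 1.06 that turned to a 2.22-fold lower level in the authors' deposited table, and Actg1 at 1796 and 1070 CPM. The smooth muscle actin Actg2 had 0 and 29 reads, 7.21-fold higher against 3 reads, with a counting interval that starts at 5.50. The skeletal Acta1 had 1 and 0 reads, and the cardiac Actc1 had none. Actin genes share long stretches of near-identical sequence, and reads that did not map uniquely were left out, so their levels are uncertain.

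Tagln, which encodes the actin-bundling protein transgelin or SM22 (ENSMUSG00000032085, chr9:45929628-45936058, minus strand), had 52 and 559 exon reads, or 4.17 and 33.4 CPM. The ratio was 8.02-fold (6.03 to 10.9), and its size depended on which reads were counted. In monocytes 102 of the 154 reads in the gene were intronic, or 66.2% (58.2 to 73.6%), and 1 of the 52 exon reads, or 1.92% (0.0487 to 10.3%), was spliced. Over all genes of that library 14.1% of gene reads were intronic and 46.4% of exon reads spliced. In macrophages 9.40% of the gene's reads were intronic (7.22 to 12.0%) and 44.7% of its exon reads were spliced (40.5 to 49.0%), beside 9.90% and 44.0% in that whole library. Spliced reads, 1 and 250, gave a ratio of 197 (34.96 to 7796), whereas the authors' deposited table gives 3.47-fold. Intron reads alone, 102 and 58, were 1.57-fold lower in macrophages (1.13 to 2.21). On the opposite strand an antisense gene, Gm48529, lies over 3627 bases of Tagln in GENCODE M21, and Pcsk7 overlaps its end by 108 bases with 680 and 548 exon reads of its own. No source used here states whether counting used strand, so reads of these genes and of Tagln cannot be told apart in the unspliced classes.

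Tagln2, the transgelin of blood cells (ENSMUSG00000026547, chr1:172500047-172507380, plus strand), was the highest member in both libraries. It had 8474 and 6500 exon reads, or 679.4 and 388.6 CPM, 1.75-fold lower in macrophages (1.69 to 1.81). Its spliced share, 43.6% and 44.0% in monocytes and macrophages, had overlapping intervals. Per length, Tagln2 held 99.2% of the transgelin RPKM in monocytes and 89.7% in macrophages, where Tagln held 10.1%. Tagln3, the neuronal relative, had 1 and 6 reads.

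Tpm1, a tropomyosin gene that gives many isoforms lying along actin filaments (ENSMUSG00000032366, chr9:67022590-67049406, minus strand), had 367 and 2215 exon reads, or 29.4 and 132.4 CPM. It was 4.501-fold higher (4.03 to 5.04), and its read classes gave similar values, 4.47-fold for spliced reads (3.80 to 5.27) and 4.86-fold for intron reads (3.84 to 6.22). Its relative Tpm2 had 21 and 204 reads, 7.24-fold higher (4.61 to 12.0). The main tropomyosin genes of these libraries lay within 2-fold, Tpm3 at 685.6 and 480.6 CPM and Tpm4 at 89.3 and 117.0 CPM. Per length, Tpm1 held 2.87% of the family's RPKM in monocytes and 13.03% in macrophages.

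Cnn2, the calponin of leukocytes, which binds actin and restrains myosin (ENSMUSG00000004665, chr10:79988584-79996062, plus strand), was lower in macrophages. It had 4667 and 2774 exon reads, or 374.2 and 165.8 CPM, 2.26-fold lower (2.15 to 2.37). Spliced reads were 2.08-fold lower (1.93 to 2.24), but intron reads went the other way, 104 and 217, or 2.33-fold higher (1.84 to 2.98). The gene's intronic share was 2.18% in monocytes and 7.26% in macrophages, while that of all gene reads was 14.1% and 9.90%. The 2-fold call for Cnn2 was lost in 5 of 14 alternatives, with the direction kept. The other floors and total exon reads, counted among the 14, left its ratio unchanged. Its relative Cnn3 stood at 23.5 and 11.1 CPM, also called lower and also within 2-fold after centring, and the smooth muscle calponin Cnn1 had 0 and 15 reads.

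Myl9, a regulatory light chain of smooth and non-muscle myosin (ENSMUSG00000067818, chr2:156775420-156781658, plus strand), had 13 and 126 exon reads, or 1.04 and 7.53 CPM, 7.23-fold higher (4.08 to 14.0). Its spliced reads were 3 and 35, a ratio of 9.17 (2.89 to 46.6). The light chains that these libraries mainly held lay within 2-fold: Myl6 at 462.8 and 453.8 CPM, Myl12a at 154.9 and 165.7 CPM and Myl12b, 1.47-fold lower, at 186.6 and 127.2 CPM, whereas Myl6b had 30 and 12 reads. Myl9 held 0.105% of the summed RPKM of these 5 genes in monocytes and 0.795% in macrophages.

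**Figure D3:**
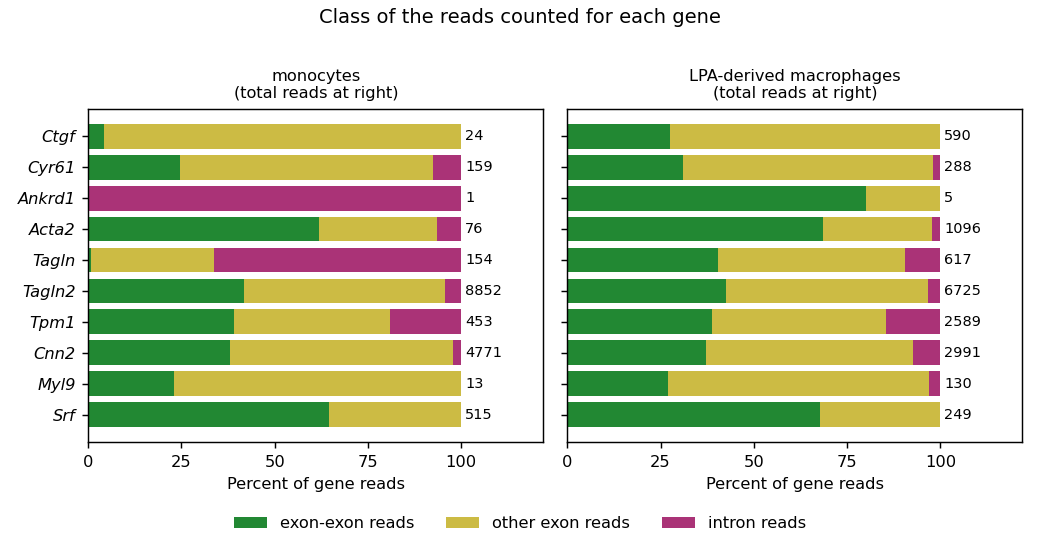
Percent of the reads in each gene that were exon-exon (spliced), other exon or intron reads in the monocyte and the macrophage library, with the total number of gene reads at the right of each bar. Tagln in monocytes is the bar with 66.2% intron reads, against 9.40% in macrophages, and Ankrd1 rests on 1 and 5 reads.

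Read per length, the order of the members differed between the libraries. In monocytes the authors' RPKM was highest for Tagln2 (274.0) and Cnn2 (127.7), followed at a distance by Srf (8.47), Cyr61 (4.90), Tpm1 (3.81), Acta2 (2.68), Tagln (2.21), Myl9 (0.753), Ctgf (0.565) and Ankrd1 (listed at 0). The exact Poisson intervals of 3 pairs of neighbours overlapped in monocytes: Cyr61 and Tpm1, Acta2 and Tagln, and Myl9 and Ctgf. In macrophages Tagln2 (164.4) and Cnn2 (59.4) again led, but Acta2 (31.7), Tagln (18.6), Tpm1 (18.0), Ctgf (10.9), Cyr61 (7.36) and Myl9 (5.71) all stood above Srf (3.20) and Ankrd1 (0.149). There the intervals of Tagln and Tpm1 overlapped, as did those of Cyr61 and Myl9. Tagln2 and Cnn2 together made up 91.7% of the summed CPM of the 10 members in monocytes and 64.5% in macrophages, while that sum went from 1149 to 859.2 CPM.

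Other cytoskeletal targets of SRF went in both directions, as genes did in general. Of 27 listed, 20 passed the floor, 4 were called higher and 3 lower, with a median log2 ratio of 0.23. Of all genes that passed, 13.8% were called higher and 19.9% lower. After centring on all genes 7 of the listed genes were higher and 2 lower, where 1806 and 1520 of all 10407 genes were. The higher ones were Cald1, an actin-binding regulator of contraction, at 24.5-fold (15.8 to 40.4) from 1.60 CPM in monocytes, Tpm2, Fhl1 at 8.20-fold and Actn1, which cross-links actin, at 3.485-fold; Pdlim5, Lima1 and Itga5 joined them after centring. Cald1, Tpm2 and Fhl1 passed the floor only by their macrophage level. The lower ones were Smtn (2.91-fold), Vcl, the vinculin gene (2.46-fold), and Csrp1 (2.15-fold, within 2-fold after centring).

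Of 9 immediate early targets, which SRF serves with the ternary complex factors, all passed the floor. The count called lower was 5 and that called higher 1, where 19.9% and 13.8% of all genes were. The median was -1.24. Spliced reads gave 2 lower of the 6 past the floor, Fosb and Nr4a1, where 1905 of all 9584 genes were lower. The median was then -0.53. Egr3, Ier2 and Junb did not pass the floor on spliced reads, so that count leaves them out and does not show a smaller difference. A pseudocount of 5 CPM gave 4 lower, where 1657 of all 10407 genes were, and a median of -0.77. Nr4a1 stood at 2027 and 18.2 CPM, Fosb at 1968 and 184.5 CPM and Ier2 at 481.0 and 98.9 CPM, and Egr3 and Junb were 3.75-fold and 2.37-fold lower, whereas Egr2 went the other way, at 23.4 and 118.7 CPM.

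The LPA receptor genes were scarcely read, and 2 of 6 passed the floor. Lpar5, with 59 and 178 reads, was 2.25-fold higher (1.67 to 3.07) and called higher, where 13.8% of all genes were. It passed only by its macrophage level, and the call was lost with a pseudocount of 5 CPM. Lpar2, with 159 and 103 reads, was 2.07-fold lower (1.61 to 2.68) but not called, since its ratio of CPM + 1 was within 2-fold. Of the others, Lpar1 had 4 and 28 reads, Lpar4 15 and 1, Lpar3 0 and 3, and Lpar6 none.

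**Figure D4:**
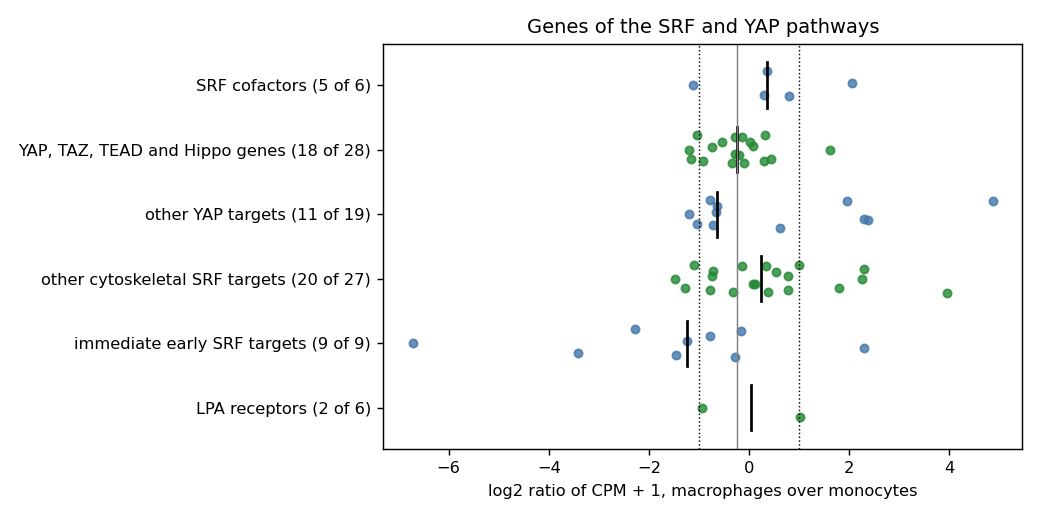
Log2 ratio of CPM + 1 (macrophages over monocytes) for the genes past the floor in each pathway list, 1 point a gene, with the list's median as a black bar, the median of all genes (-0.23) as a grey line and 2-fold dotted; the counts are genes past the floor of genes listed. The medians of the YAP and Hippo list, the other YAP targets and the cytoskeletal targets change sign under some other scaling or floor.

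Markers of other cell types that carry contractile genes were read too. The shares called over all genes past the floor were 13.8% higher and 19.9% lower. Of 10 smooth muscle and pericyte markers, which summed to 2.73 and 15.1 CPM, 1 passed the floor, Mcam at 0.962 and 7.89 CPM, and it was called higher. Myh11, Cnn1, Des, Actg2 and Lmod1 were at 0 in monocytes and had 1, 15, 2, 29 and 12 reads in macrophages. These genes stand also in the list of other cytoskeletal SRF targets. Cspg4 had 5 and 41 reads. The 11 fibroblast and stromal markers summed to 1806 and 991.0 CPM, none at 0, with 2 of the 8 past the floor called higher and 4 lower. Postn stood at 0.802 and 92.2 CPM and Col3a1 at 0.641 and 10.9 CPM, but Col1a1 at 919.4 and 446.8 CPM and Col1a2 at 839.1 and 416.9 CPM. Dcn and Lum were also called lower, and after centring they alone of the 4 were. Dcn and Lum passed the floor only by their monocyte level, and Mcam, Postn and Col3a1 only by their macrophage level.

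All 7 megakaryocyte and platelet markers passed the floor, and 6 were called higher and none lower, where 13.8% and 19.9% of all genes were. Their sum went from 99.7 to 434.4 CPM, none at 0. The count called higher ran from 3 to 7 over the alternatives, and Gp9, Gp1bb, Tubb1 and Gp6 passed the floor only by their macrophage level. Itga2b stood at 48.7 and 158.4 CPM, Pf4 at 26.2 and 125.4 CPM and Ppbp at 15.4 and 115.6 CPM. Platelets are known to carry Myl9, Tpm1 and Tagln2. The 6 endothelial markers summed to 77.8 and 37.1 CPM (Tek at 0 in macrophages). The 2 past the floor were called lower, where 19.9% of all genes were. Pecam1 stood at 62.1 and 30.3 CPM, Tie1 at 9.30 and 2.57 CPM and Kdr at 3.53 and 3.95 CPM. After centring on all genes Pecam1 was within 2-fold, and Tie1 passed the floor only by its monocyte level. The 5 osteoblast markers summed to 138.9 and 34.7 CPM (Bglap at 0 in macrophages). The 3 past the floor were called lower, against the same 19.9% of all genes. Runx2 stood at 99.3 and 30.6 CPM, Bglap at 23.7 and 0 CPM and Ibsp at 11.3 and 2.93 CPM. Bglap and Ibsp passed the floor only by their monocyte level. The part of any of these cells in the members' differences was not tested.

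**Figure D5:**
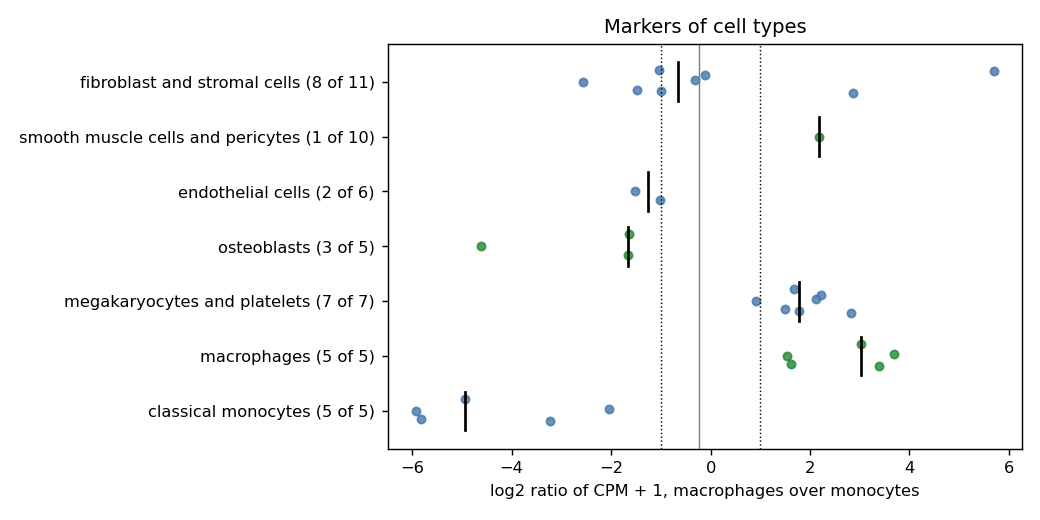
Log2 ratio of CPM + 1 (macrophages over monocytes) for the markers past the floor in each cell type list, 1 point a gene, drawn as in the plot of pathway lists. The 5 macrophage markers are all higher and the 5 classical monocyte markers all lower in the macrophage library, and the 7 platelet markers lie between 0.92 and 2.83.

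The labels of the libraries matched their defining markers. All 5 macrophage markers were called higher in the macrophage library, where 13.8% of all genes were. They summed to 934.3 and 4512 CPM, with Csf1r at 593.6 and 1734 CPM, Cd68 at 157.1 and 1295 CPM and Adgre1 at 107.3 and 1138 CPM. All 5 classical monocyte markers were called lower, where 19.9% of all genes were. They summed to 5731 and 321.6 CPM, led by Ly6c2, F13a1 and Plac8, at 1849, 1373 and 1239 CPM in monocytes. Scaling shifts every ratio given here: of the genes called, 41.0% were higher in macrophages, against 53.3% with TMM factors, 53.9% with median-of-ratios size factors and 54.3% after centring on the median of all genes, which adds 0.23 to each log2 ratio.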

How the data were processed

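RNA was measured in 2 libraries, 1 per group, grouped by title. The deposited table holds read counts per gene by class (gene, exon, exon-exon, intron), per the file headers; the unique exon counts were used. RPKM, a normalized signal and the signed fold score (the ratio of that signal) are the authors' own, per the file headers. No source used here names the authors' mapper. The build was mm9, per the submitters' processing notes, but the coordinates are those of GRCm38: all 10 members overlap their GENCODE M21 gene, 6 with the same start and end. Exon length is the deposited length in bases.

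The members and gene lists were chosen with earlier results of these data known. Counts were scaled to CPM; genes at 5 CPM in at least 1 library were kept; the log2 ratio used a pseudocount of 1 CPM. Printed folds are CPM ratios without a pseudocount, with exact conditional 95% intervals; RPKM levels have exact Poisson intervals; shares have Clopper-Pearson intervals. All cover counting error only. A count of 0 was bounded by 3 reads. With 1 library a group no test was made. A further gene list is not reported here.

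Named were all members, their paralogs, the cofactors, TEAD and LPA receptor genes, the 4 largest absolute ratios of each other pathway list, and the 3 highest genes of each marker list; other genes, mostly those behind counts of 5 or fewer, were named after their values were seen. Alternatives were other pseudocounts, floors, scalings (TMM from edgeR 4.0.16 in R 4.3.3), read classes and the authors' values; spliced reads and a floor in monocytes only were added after seeing the data. Computation used Python 3.11.15, pandas 2.3.3 and scipy 1.17.1, and was checked on simulated data.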

Additional observations from a re-analysis of the deposited data

How the results depend on the processing

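Over 14 alternatives that kept the floor symmetric between the libraries, no member called 2-fold changed sign: Ctgf, Acta2, Tagln and Tpm1 stayed at least 2-fold higher and Srf at least 2-fold lower in all 14, and Myl9 stayed higher in the 12 that gave it a value. The other floors, counted among the 14, cannot change the ratio of a single gene, and total exon reads left these ratios unchanged. The log2 ratio ran from 2.54 to 4.41 for Ctgf and from 1.05 to 2.93 for Myl9. For Tagln it ran from 1.56 (gene reads, introns included) to 4.90 (spliced reads). The count of members called lower dropped from 2 to 1 with TMM factors, median-of-ratios size factors, centring, and the authors' normalized values or fold change, all through Cnn2. The members' median log2 ratio was 1.05 with a pseudocount of 5 CPM. With the floor set in monocytes only, chosen after seeing the data, it was -0.16, because members low in monocytes drop out. Then 2 of 6 members and 862 of 9694 genes were higher, in place of 5 of 9 and 1440 of 10407. At a floor of 25 CPM, 4 members were higher, as were 880 of the 7246 genes that passed it. Depth limits ratios that rest on few monocyte reads, among them those of Ankrd1, Yap1, Wwtr1, Tead1 and Myl9. No paired analysis was possible because each group has 1 library.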
